A study of Homo sapiens with 9 samples.

Results

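HBG2, the gene of the G-gamma chain of fetal haemoglobin, and 9 olfactory receptor entries of the OR51 family lie along one stretch of the short arm of chromosome 11. These 10 genes and pseudogenes, of 58336 rows in the deposited table, were chosen by their place within or beside the long annotated HBG2 gene and by their values, which were higher in one clone alone. The levels and ratios of the 10 entries below are therefore a description of that choice and carry no test. The entries are HBG2, 4 genes annotated as protein-coding (OR51B4, OR51B5, OR51B2 and OR51I1) and 5 pseudogenes (OR51AB1P, OR51B3P, OR51B8P, OR51K1P and OR51A10P).

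The cells were MEL624, a human melanoma line, and nascent RNA was measured by precision run-on sequencing (PRO-seq), in which engaged RNA polymerases extend their transcripts with a labelled nucleotide before the 3′ ends are sequenced. There were 9 libraries, 3 biological replicates in each of 3 groups: wild-type cells carrying a random guide RNA (control), PCIF1 knockout clone 1 and PCIF1 knockout clone 2. PCIF1 methylates the cap-adjacent adenosine of mRNA. Each knockout line is a single clone, so what belongs to the knockout and what belongs to the clone cannot be told apart by 1 line; whether the control cells were cloned is not given in the sources used here. All 3 groups were grown alike and received Drosophila cells as a spike-in.

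The authors deposited 1 mean per group, as a mean normalized count per kb of gene length. It holds no standard deviation, so no difference below could be set against the variation among libraries and no test was made. The submitters state an average depth of 50000000 mappable reads per library, but the depth of each library is unknown. Levels are compared between genes on the scale per kb. Mean normalized counts (the value per kb times the length) are given where the amount of signal matters. PCIF1 itself had 74.4, 83.7 and 74.3 per kb in control, clone 1 and clone 2, values that cannot show which lines were edited, because a short deletion at a guide's site can leave nascent RNA as it was. Of 8 melanocyte markers, MITF was at 23.5, 19.8 and 36.1 per kb and PAX3 at 19.2, 36.1 and 27.8, whereas TYR was listed at 0 in each group. SOX10 was listed at 0 in control and clone 1 and at 1.64 per kb (6.08 counts) in clone 2. MLANA and DCT were each at no more than 0.66 per kb. TYRP1 was at 0.89, 1.82 and 0.81 per kb, and PMEL, a pigment granule protein gene, was at 12.4, 5.47 and 6.09, lower in both clones by a similar amount (log2 ratios with a pseudocount of 1 of -1.15 and -0.997). Most pigment markers of the melanocyte were thus near 0 in this line.

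The beta-globin genes sit in a row in the order in which they are used in development, from the embryonic HBE1 through the fetal HBG2 and HBG1 to the adult HBD and HBB, and a distant locus control region drives them in red cell precursors. On both sides the row is flanked by olfactory receptor genes. Olfactory receptors are odorant-binding proteins coupled to G proteins; their coding sequence usually lies in 1 exon, and a mature olfactory neuron expresses very few of them. Both gene families are silent in most other cell types.

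In GENCODE release 44 (GRCh38), HBG2 (ENSG00000196565) spans bases 5253188 to 5505605 of chromosome 11 on the minus strand. That length comes from 1 of its 3 annotated transcripts. The other transcripts begin at the classical gamma-globin start (base 5254781), whereas the long one has its first exon at 5505351 to 5505605, followed by a single intron that reaches to the gamma-globin second exon at 5254292 to 5254514. Of the transcripts of OR51B5 (ENSG00000167355, 5303444 to 5505652), 4 of 5 begin nearby, and so do 2 of 3 of HBE1, the embryonic epsilon-globin gene. Their first exon (5505569 to 5505652) is another one than that of HBG2 and overlaps it by 37 bases. The outermost of these starts, base 5505652, is called the distal start here, and distances are counted from it along the minus strand to the midpoint of a gene.

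All 10 entries were annotated on the minus strand, the strand of the long transcripts. The nearest to the distal start was OR51A10P (5468486 to 5469422), at 36.7 kb. OR51I1 (5440570 to 5441514) followed at 64.6 kb and OR51K1P (5430653 to 5431602) at 74.5 kb. After an interval of 100.2 kb came OR51B8P (5330592 to 5331360) at 174.7 kb, OR51B2 (5323359 to 5324297) at 181.8 kb, OR51B3P (5314772 to 5315684) at 190.4 kb, OR51B4 (5301014 to 5301946) at 204.2 kb and OR51AB1P (5291761 to 5292380) at 213.6 kb. These 8 entries have 1 exon each, and all of them lie inside the long intron of HBG2. None of their exon bases belongs to an exon of another gene on that strand. Any transcription that runs through this intron on the minus strand would also cover these exons, and in these values it cannot be told apart from transcription of the receptor genes themselves.

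HBG2 had the highest level of the 10 entries in every group. It was at 44.4 per kb in control, 313.1 in clone 1 and 45.0 in clone 2, or 38.6, 272.1 and 39.1 mean normalized counts. Clone 1 was thus 7.05 times control and 6.96 times clone 2, while clone 2 was 1.01 times control. Among 12525 protein-coding genes that passed the floor used here (a mean of at least 10 normalized counts over the 3 groups), HBG2 lay at percentile 67.3 in control, 97.7 in clone 1 and 66.8 in clone 2. Its place among transcribed genes was thus near the top in clone 1 and alike in control and clone 2.

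Which exon of HBG2 held these counts is not known, because the table gives 1 value per gene. The first exon at the distal start has 255 bases, 218 of them in no other gene. The exons at the gamma-globin body overlap exons of 2 entries without a symbol (ENSG00000284931 and ENSG00000239920), and all 104 windows of 42 bases, the read length, in the classical first exon occur again within 1 Mb of the span, as do 76.9% of those in the second exon and 35.0% of those in the last. HBG1, a near-identical copy of HBG2, lies next to it, and reads from the gamma-globin exons may be split between the copies or lost. By contrast, 0 of the 214 windows in the distal first exon and 0 windows in any of the 9 OR51 entries were repeated there.

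OR51B5, whose exons lie partly at the distal start and partly from 159 to 201 kb beyond it, was at 5.44 per kb in control, 45.8 in clone 1 and 7.22 in clone 2. With a length of 3965 bases it collected 21.6, 181.4 and 28.6 counts, the second largest amount of the 10. Its clone 1 value was 8.41 times control and 6.34 times clone 2. Its protein is an odorant receptor, as are those of OR51B4, OR51B2 and OR51I1.

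OR51I1 was at 14.8 per kb in control, 103.0 in clone 1 and 24.9 in clone 2. The pseudogene OR51A10P, nearest to the distal start, was at 17.4, 142.5 and 24.4. OR51K1P, also a pseudogene, was at 12.3, 115.9 and 22.5. In these 3 entries clone 1 was from 6.94 to 9.46 times control, and clone 2 was from 1.40 to 1.84 times control.

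OR51B8P had the highest level of the OR51 entries, 18.4 per kb in control, 152.7 in clone 1 and 27.4 in clone 2. OR51B2, 7.15 kb farther on, was at 7.25, 54.0 and 4.37, and OR51B3P at 9.63, 64.8 and 8.16. Between OR51B8P and OR51B2 the level was thus lower by a factor of 2.53 in control, 2.83 in clone 1 and 6.26 in clone 2. The levels of these neighbours differed in the same direction in all 3 groups.

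OR51B4 was at 9.25 per kb in control, 58.8 in clone 1 and 6.60 in clone 2. From there to OR51AB1P, the farthest OR51 entry, the level was lower by a factor of 2.30 in control, 1.13 in clone 1 and 2.00 in clone 2. OR51AB1P was at 4.03, 52.1 and 3.30, the widest ratio of the 10 (12.9 times control and 15.8 times clone 2). That ratio rests on little signal, since the counts of OR51AB1P were 2.50 (control), 32.3 (clone 1) and 2.05 (clone 2). In the 4 entries beyond OR51B8P, control and clone 2 stayed under 10 counts, so these entries passed the floor only through clone 1.

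**Figure D1:**
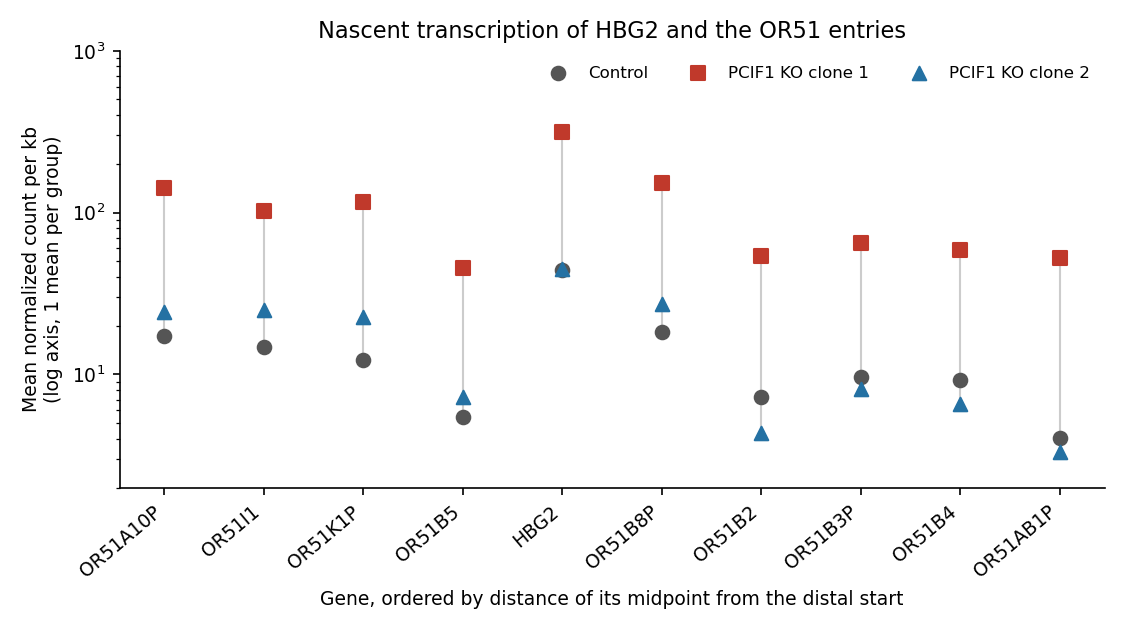
Mean normalized count per kb (log axis) of the 10 entries in control (circles), clone 1 (squares) and clone 2 (triangles), 1 mean of 3 libraries each, ordered by the distance of the gene midpoint from the distal start. Clone 1 lies highest for every entry, from 45.8 (OR51B5) to 313.1 (HBG2), while control and clone 2 lie close together.

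Across the 10 entries, the lowest, median and highest level was 4.03, 10.9 and 44.4 per kb in control, 45.8, 83.9 and 313.1 in clone 1, and 3.30, 15.4 and 45.0 in clone 2. The ratio of clone 1 to control ran from 6.36 (OR51B4) to 12.9 (OR51AB1P) with a median of 7.82. The entries were chosen for higher values in clone 1, so nothing is read from how alike these ratios were. OR51B4 and OR51AB1P also passed the floor only through clone 1. The summed counts of the 10 entries were 142.9 (control), 1109 (clone 1) and 176.3 (clone 2), ratios to control of 7.76 and 1.23. The median level of the 5 pseudogenes was 12.3 per kb in control, 115.9 in clone 1 and 22.5 in clone 2, and that of the 4 coding OR51 genes was 8.25, 56.4 and 6.91. The pseudogene medians were the higher in each group, but the ranges overlapped in each group too. In clone 1 they ran from 52.1 to 152.7 for pseudogenes and from 45.8 to 103.0 for coding genes. The coding range lay inside the pseudogene range in control (5.44 to 14.8 within 4.03 to 18.4) and in clone 2 (4.37 to 24.9 within 3.30 to 27.4).

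Ratios were also taken as log2 after adding a pseudocount of 1 to the counts, over all 17149 genes at the floor. All 10 entries were at least 2-fold higher in clone 1 than in control, against 2.27% of all genes (1.32% were at least 2-fold lower). In clone 2 none was at least 2-fold higher or lower than in control, against 3.34% and 1.9% of all genes. All 10 were at least 2-fold higher in clone 1 than in clone 2, against 0.933% of all genes (1.05% were lower). The choice of the entries fixes these counts, and nothing is read from them. On the log2 scale the entries ran from 2.54 to 3.25 in clone 1 against control and from -0.61 to 0.83 in clone 2 against control. By clone 1 against control they ranked from 43 (OR51AB1P) to 67 (OR51B4) of the 17149 genes, and HBG2 was at 59.

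**Figure D2:**
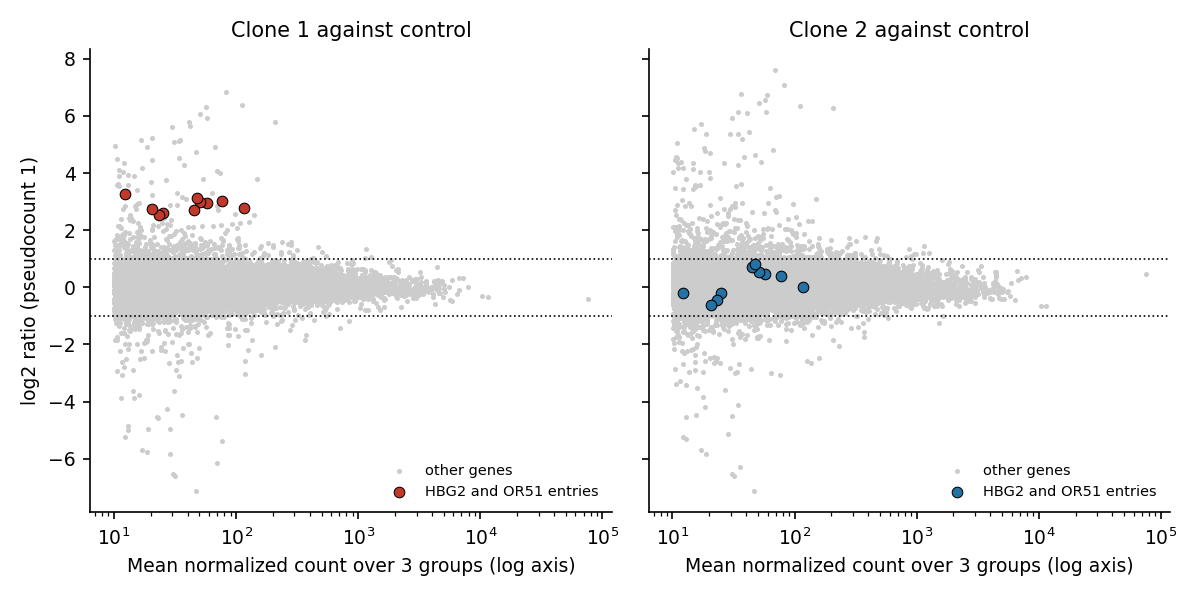
log2 ratio to control (pseudocount 1) against mean normalized count (log axis) for 17149 genes, grey, with the 10 entries coloured, for clone 1 (left) and clone 2 (right); dotted lines mark a 2-fold ratio. The entries lie from 2.54 to 3.25 in clone 1 and from -0.61 to 0.83 in clone 2.

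A total of 39 genes of the series, 0.227%, were at least 2-fold higher in clone 1 than in both control and clone 2, and the 10 entries were among them. The choice of the entries fixes that count too.

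The levels did not decline steadily with distance: OR51B8P, at 174.7 kb, was above OR51A10P, at 36.7 kb, in each group. Summed, the 4 single-exon entries nearer to the distal start (36.7 to 174.7 kb) had 15.6 counts per kb in control, 127.3 in clone 1 and 24.7 in clone 2. The 4 farther ones (181.8 to 213.6 kb) had 7.85, 57.8 and 5.80. The nearer were thus 1.98 times the farther in control, 2.20 times in clone 1 and 4.25 times in clone 2. Over these 8 entries, which share libraries and scaling, the Spearman correlation of level with distance was -0.79 in control and -0.76 in each clone. It was -0.07 for the ratio of clone 1 to control, a ratio by which the entries were chosen. The entries are not independent points, and the 4 farther ones passed the floor only through clone 1. These correlations describe the chosen entries and were not tested.

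In clone 2 the ratio to control was not alike along the stretch. The 4 nearer entries were 1.40 to 1.84 times control and the 4 farther ones 0.60 to 0.85 times, with ratios of summed counts of 1.58 and 0.74. The corresponding ratios for clone 1 were 8.17 and 7.37. The split into nearer and farther entries was placed after the values were seen, the farther entries summed to 19.8 counts in clone 2 beside 26.7 in control, and the difference was not tested.

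**Figure D3:**
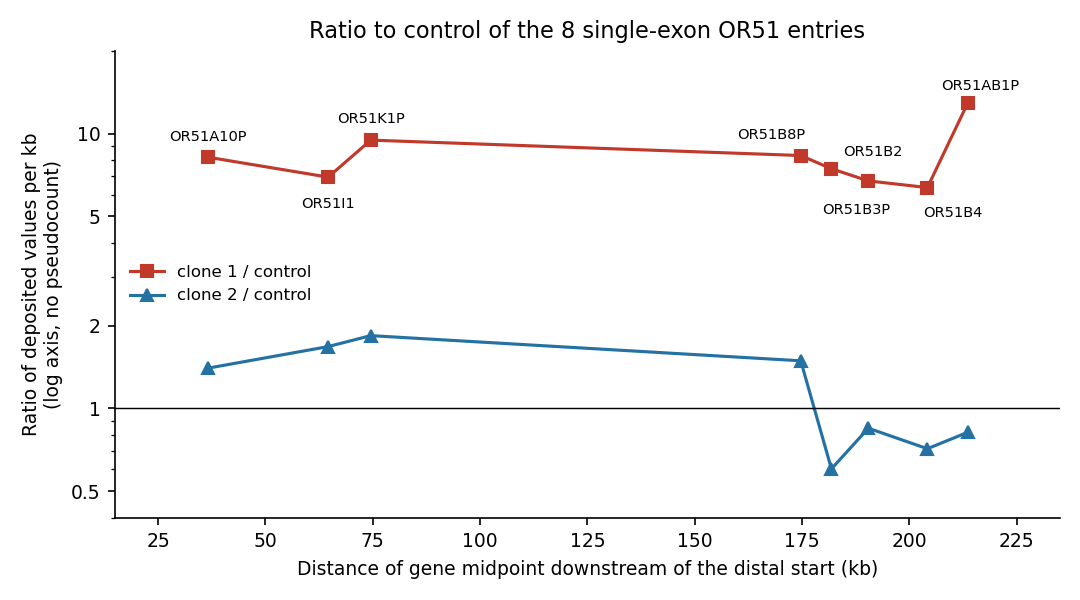
Ratio to control of the deposited values per kb (log axis, no pseudocount) for the 8 single-exon OR51 entries against distance downstream of the distal start in kb; squares are clone 1 and triangles clone 2. Clone 1 lies from 6.36 to 12.9 throughout, and clone 2 passes from above 1 (1.40 to 1.84) to below it (0.60 to 0.85) between OR51B8P and OR51B2.

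The opposite strand of the same stretch held almost no signal. The 8 plus-strand genes inside the span, OR51B6, OR51M1, OR51J1, OR51Q1, OR51I2, OR52D1 and 2 processed pseudogenes, had 0.0569 counts per kb in control, 0.515 in clone 1 and 0.131 in clone 2 when summed. The 10 minus-strand entries, which were chosen for higher values in clone 1, had 12.1, 93.6 and 14.9 when summed in the same way. The 3 other minus-strand genes inside the span had 2.03, 3.68 and 0.891. The highest plus-strand value was that of OR52D1, which lies 16.4 kb from the distal start: it was listed at 0 in control, 3.23 per kb in clone 1 and 0.31 in clone 2, or 3.44 counts in clone 1. None of these 8 genes passed the floor.

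Upstream of the distal start, UBQLNL, a minus-strand gene at 10.8 kb, was listed at 0 in each group. The high levels were thus not shared by this gene before the span.

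Downstream of OR51AB1P, the levels of the other beta-globin genes were far lower. HBE1 was at 1.18 per kb in control, 3.96 in clone 1 and 0.35 in clone 2, but 96 of its 961 exon bases alone belong to no other gene, so most of its reads could be ambiguous. HBG1, the gene of the A-gamma chain, was at 0.49, 2.99 and 0. BGLT3, a noncoding gene of the cluster whose 993 exon bases are its own, was at 1.11, 5.01 and 1.39.

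HBBP1, the pseudogene of the cluster, was at 0.26, 2.35 and 0.46 per kb. The delta-globin gene HBD, which overlaps it, was at 0.30, 2.50 and 0.53. HBB, the adult beta-globin gene, was at 0.56, 0.72 and 0.25. In all 6 of these genes clone 1 was the highest group, as it was in HBG2, but none passed the floor and no group of any of them exceeded 4.97 counts. The sums over the 6 genes were 4.11 counts (control), 18.6 (clone 1) and 3.38 (clone 2).

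**Figure D4:**
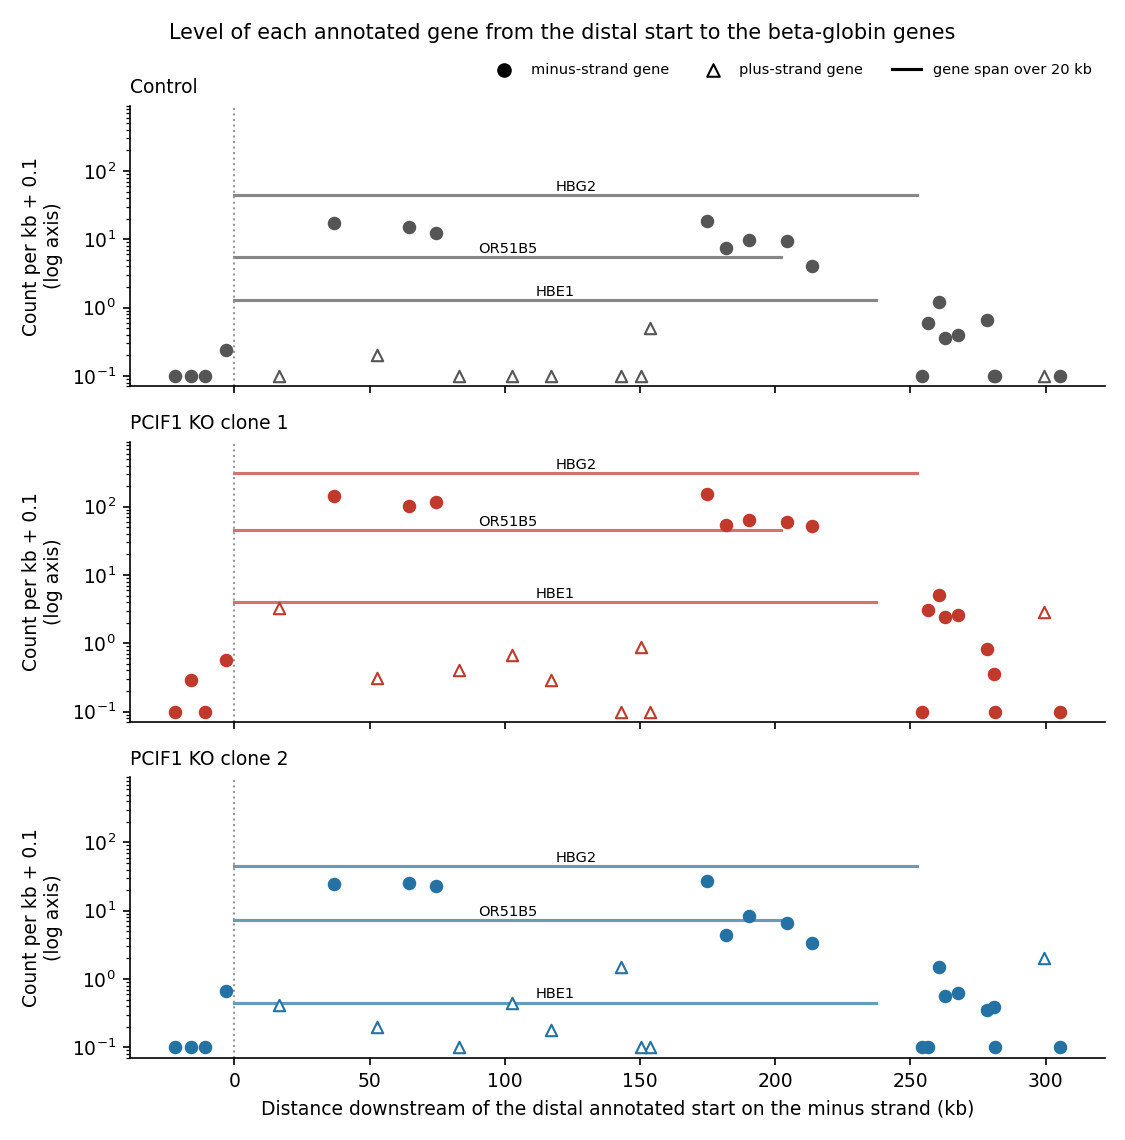
Mean normalized count per kb plus 0.1 (log axis) of the annotated genes from just before the distal start to just beyond the beta-globin genes, in control, clone 1 and clone 2, against distance downstream on the minus strand in kb; lines are genes that span over 20 kb, and ENSG00000239920 is left out. Before the 0.1 is added, the 8 single-exon entries (filled circles, minus strand) lie from 52.1 to 152.7 in clone 1, and plus-strand genes inside the span (open triangles) at no more than 3.23.

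The entry ENSG00000239920 (5254392 to 5678434, minus strand), which the annotation gives no symbol, starts beyond the distal start and covers the whole stretch. It was at 2.44 per kb in control, 4.08 in clone 1 and 1.10 in clone 2, with 12.8, 21.5 and 5.79 counts. Its log2 ratios to control were 0.70 and -1.03, and of its 5265 exon bases 3705 belong to no other gene. Its ratio in clone 1 was smaller than that of any of the 10 entries.

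Within 1 Mb of the span there were 147 other genes, of which 89 were listed at 0 in all groups and 12 passed the floor, ENSG00000239920 among them. None of the 12 was at least 2-fold higher in either clone, beside 2.27% (clone 1) and 3.34% (clone 2) of all genes, and 1, ENSG00000239920, was at least 2-fold lower in clone 2, beside 1.9%. The genes are too few for these counts to be set apart from the background. The 11 that lie outside the span had a median log2 ratio of -0.05 in clone 1 and -0.03 in clone 2, beside -0.00 and -0.00 over all 17149 genes. The nearest was the antiviral gene TRIM5 on the upstream side, at 5.69, 6.33 and 5.04 per kb.

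The others on that side were FHIP1B, the caveolar coat gene CAVIN3, the sphingomyelinase gene SMPD1, APBB1, TRIM3, ARFIP2, TIMM10B and DNHD1. On the downstream side they were TRIM68 and TRIM21, which encodes an antibody-binding ubiquitin ligase. Their clone 1 ratios ran from -0.28 (FHIP1B) to 0.67 (TIMM10B, a mitochondrial import factor, which was at 0.78 in clone 2). Apart from ENSG00000239920, which runs across the distal start, no gene at the floor lay between the distal start and TRIM5 or between HBG2 and TRIM68. The edges of the raised stretch could thus be judged only by near-silent genes. One of them, OR52A5 (minus strand, 372.1 kb), lay beyond HBB and was at 0, 1.55 and 0.17 per kb. It had 6.26 counts in clone 1 and did not pass the floor. Between HBB and OR52A5, OR51V1, OR52Z1P and OR51A1P were listed at 0 in each group. OR52A1 was at 0.11, 0.31 and 0.24 per kb.

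**Figure D5:**
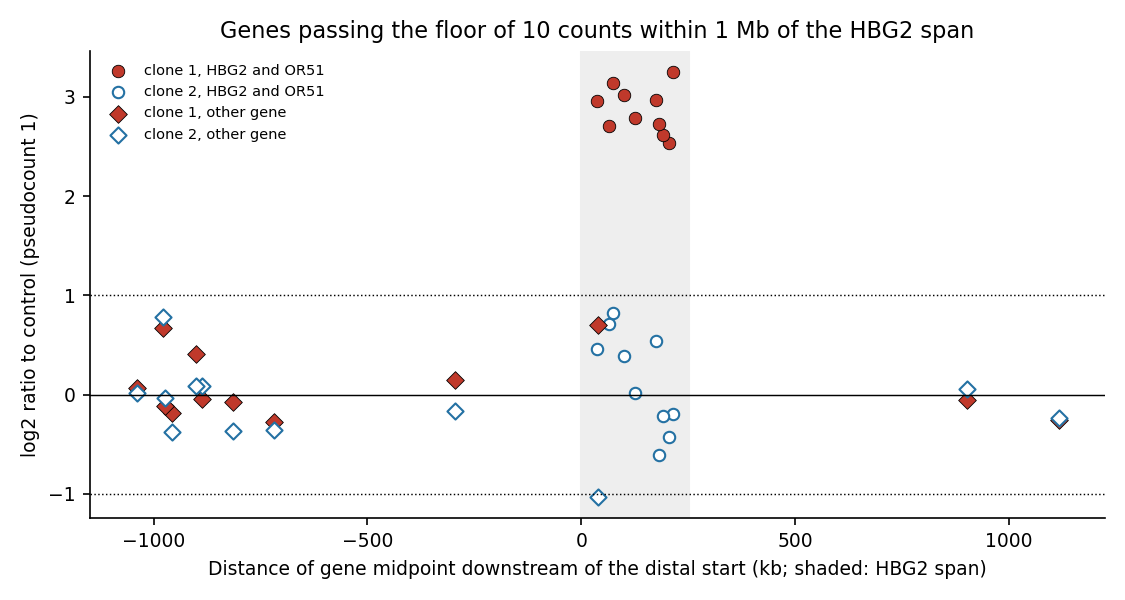
log2 ratio to control (pseudocount 1) of the genes that passed the floor of 10 counts within 1 Mb of the HBG2 span (shaded), against distance of the gene midpoint from the distal start in kb; filled symbols are clone 1, open symbols clone 2, circles the 10 entries and diamonds other genes. The clone 1 circles lie from 2.54 to 3.25, and every diamond in clone 1 lies from -0.28 to 0.70.

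Other olfactory receptor genes were mostly silent. Of 863 olfactory receptor genes and pseudogenes in the table, 677 were listed at 0 in all 3 groups and 19 passed the floor, 9 of which were the OR51 entries. In clone 1, the group for whose higher values they were chosen, these 9 held 9 of the 10 highest levels per kb of the family. OR10J6P on chromosome 1 was the exception, at 56.6 per kb in control, 82.1 in clone 1 and 63.1 in clone 2. In control they held 6 of the 10 highest and in clone 2 5.

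Of the 35 other OR51 genes and pseudogenes, 27 were listed at 0 in all groups and none exceeded 0.57 per kb. OR51E2, a receptor known from prostate, was at 0.13 per kb in control and listed at 0 in both clones. Among the 10 olfactory receptor entries at the floor outside the stretch, 1 was at least 2-fold higher in clone 1, beside 2.27% of all genes. It was OR2M4, with 4.04, 23.1 and 20.2 counts, which was also at least 2-fold higher in clone 2 (3.34% of all genes).

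Genes of olfactory receptor signalling and trafficking were looked at as a list of 14, of which 6 passed the floor. One of the 6 was at least 2-fold lower in clone 1 and none higher: GNAL, the olfactory G protein alpha subunit gene, at 12.4, 6.03 and 8.37 per kb. In clone 2 the one such gene was ANO2, a calcium-activated chloride channel gene, which was higher at 4.54, 5.11 and 11.5 per kb. The share of all genes at least 2-fold off in either direction was 3.59% in clone 1 and 5.23% in clone 2. The list's median log2 ratios were -0.05 and -0.18.

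The highest levels of that list in control were those of ATF5 (145.0 per kb), RIC8B (33.98), the adenylyl cyclase gene ADCY3 (29.3) and GNAL. The olfactory channel gene CNGA2 and the receptor transporters RTP1 and RTP2 were listed at 0 in each group. OMP, the marker of mature olfactory neurons, was at 3.78, 3.47 and 3.42 per kb with under 2 counts.

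A list of 33 genes known to act on gamma-globin transcription had 30 members at the floor, and 0 of them were at least 2-fold off in clone 1 and 1 in clone 2, beside 3.59% and 5.23% of all genes, shares at which about as few would be seen in a list of this size. Their median log2 ratio was -0.11 in clone 1 and -0.19 in clone 2. BCL11A and ZBTB7A, repressors of the gamma-globin genes in adult red cells, were at 1.64, 1.44 and 1.88 per kb and at 31.0, 27.1 and 24.5. MYB was at 2.42, 2.03 and 1.19 and LIN28B, which favours fetal globin, at 14.8, 20.5 and 17.7.

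The highest levels of this list in control were those of the DNA methyltransferase gene DNMT1 (91.3 per kb), MTA2 (83.4), BACH1 (75.9) and IGF2BP1 (69.4). The erythroid activators GATA1, KLF1 and TAL1 were listed at 0 in all groups. LMO2, their partner, was the 1 gene of the list 2-fold lower in clone 2, at 7.07, 4.79 and 3.37 per kb, just past that limit.

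Markers of red cell precursors were near 0 in all 3 groups, apart from EPOR. Of 14 erythroid markers, 6 were listed at 0 in all groups, among them SLC4A1 and AHSP (GATA1 and KLF1 are also in the list of regulators), and EPOR, the erythropoietin receptor gene, alone passed the floor, at 61.2, 73.5 and 79.7 per kb. The other 13 markers summed to 13.0 (control), 10.4 (clone 1) and 11.6 (clone 2) counts. All 7 entries of the alpha-globin cluster on chromosome 16, HBA1 and HBA2 included, were listed at 0 in every group.

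Outside the 1 Mb window, the genes whose 3 group values were most like those of HBG2 were found among 11862 genes with at least 50 counts by the Euclidean distance between centred log2 values over the 3 groups. They were the adhesion receptor gene ICAM1 (distance 1.22), SLC44A3-AS1 (1.38), the tissue factor gene F3 (1.39), the lysophosphatidic acid receptor gene LPAR1 (1.48), LINC01589 (1.51) and CT75 (1.52). The counts of ICAM1 were 52.6 (control), 176.8 (clone 1) and 84.2 (clone 2). The OR51 entries, chosen for the same pattern as HBG2, lay at distances from 0.17 (OR51B3P) to 0.60 (OR51I1), which restates that choice. A likeness over 3 group means is a weak measure, and antisense genes such as SLC44A3-AS1 are uncertain where strand was not used in counting.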

How the data were processed

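Per the file headers, the authors deposited for each gene the mean over the replicates of a group of normalized counts per kb of gene length, a signal that was scaled before averaging. Tools listed in the submitters' processing notes are Bowtie 1.2.2, cutadapt 1.14, DESeq2 and featureCounts, and the builds are hg38, GRCh38.p12 and dm3. The sources used here do not give the strand setting, the counted feature, how reads shared by genes were treated, or how the spike-in was used. The deposited gene length is of another kind of unit, in bases. Rows have 5 cells under 6 header names; the symbol was taken as missing. Of 58336 identifiers, 57754 matched GENCODE release 44. For the 10 entries, 9 lengths equal its merged exons (HBG2: 869 deposited, 841 in release 44).

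Values were multiplied by length in kb to give counts. Ratios used a pseudocount of 1 and the 17149 genes whose mean count over the groups reached 10. Computation used Python 3.11.15 with pandas 2.3.3, numpy 2.4.6 and scipy 1.17.1, figures used matplotlib 3.10.9, and the ratio step was tested on simulated data. The entries and gene lists were chosen with earlier results of these data known. Named genes were all 10 entries, the rest of the beta-globin cluster, neighbours within 1 Mb that passed the floor, list members 2-fold off or highest in control, and the 6 genes most like HBG2; others were chosen after their values were seen. There were 7 alternatives. RefSeq promoter entries were not found for the 10 entries, and none is shown. Values of some genes are not reported here.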

Additional observations from a re-analysis of the deposited data

How the results depend on the processing

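The 10 entries had a log2 ratio from 2.14 to 3.45 in clone 1 against control over the 7 alternatives (quantile normalization, rescaling by median of ratios, a pseudocount of 0.5 or of 5, a floor of 50 counts, no filter, and values per kb), from 1.84 to 3.69 against clone 2, and from -0.67 to 0.85 in clone 2 against control. A floor of 50 left 4 entries (HBG2, OR51B5, OR51A10P and OR51B8P), and 4 of these 4 were at least 2-fold higher in clone 1 than in control and than in clone 2; under the other alternatives all 10 were. With no filter, 8 other genes near the span were at least 2-fold higher in clone 1 and 1 in clone 2, against 0 and 0 at the floor of 10, and 9 and 6 list genes were 2-fold off, against 3 (HBG2, GNAL and PMEL) and 2 (LMO2 and ANO2). Values per kb gave 1 and 0 list genes. In clone 2 that count was 1 with median-of-ratios rescaling, 1 with a pseudocount of 5, 3 with a pseudocount of 0.5 and 0 with a floor of 50, and in clone 1 it was 2 with a pseudocount of 5 and with a floor of 50. Quantile normalization changed neither count. No paired analysis was possible because the table holds 1 mean per group; for the same reason leaving out each replicate was not run. Depth of single libraries is unknown, and entries with under 10 counts in control (OR51B2, OR51B3P, OR51B4 and OR51AB1P) are the least certain.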
